A study of Mus musculus with 7 samples.

Results

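Periostin, fibronectin, SPARC and their partners are proteins of the extracellular matrix that is laid down and rebuilt as tissue grows or heals. The 10 genes described here are Postn, Cthrc1, Lrrc15, Adam12, Fn1, Tnc, C1qtnf3, Thbs2, Sparc and Frem1, taken by symbol from the 27998 genes of the deposited matrices. They were chosen by their difference between old and young adipose progenitors in these same counts. Their progenitor levels are therefore given as a description. Counts of them past a threshold in progenitors describe the same difference and support nothing, and tests are read for the other cell types and for other matrix genes. The lists of those other genes were also chosen with earlier results of these data known, which limits their tests. The cells came from the stromal vascular fraction, the non-adipocyte part of digested fat, of inguinal subcutaneous adipose tissue. The old group held 3 libraries from C57BL/6N females aged 18 months, and the young group 4 libraries from C57BL/6N females aged 11-12 weeks. No treatment or genetic change is labelled in either group. Libraries were made with the 10x Genomics 3' v3 chemistry for single cells, which counts unique molecular identifiers (UMIs) near the 3' end of each RNA. The labels do not say how many mice went into a library, so the p-values measure the spread between these libraries.

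Matricellular proteins are secreted into the matrix but act mainly by binding cells, growth factors and fibres rather than as building blocks. Fibroblasts and adipose progenitors are their usual source, and their RNA is typically high during growth, wound repair and fibrosis. In fat, the progenitors that give rise to adipocytes also make the collagen and fibronectin scaffold around them, and SPARC is known to restrain adipocyte formation.

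The deposited libraries held between 52336665 and 73199573 UMIs in the old group and between 57841640 and 99516882 UMIs in the young group. After filtering, 18926 old and 18446 young cells were kept, with a median of 5970 to 7955 UMIs per cell in old libraries and 9259 to 13782 in young libraries. Clustering without the 10 genes gave 42 clusters, of which 30 could be named from markers. Of these, 6 clusters with 12095 cells were progenitor-like. The 12 progenitor markers, Pdgfra, Dcn and Pi16 among them, summed to 38703 to 56574 counts per 1000000 UMIs (CPM) in old progenitors and 26297 to 42904 CPM in young progenitors. All 12 were detected at both ages. A pair of libraries stood apart. Young replicate 1 had 9.73% of its progenitors in the cluster led by H19 and Fgf10, against 28.05% to 45.3% in the other young libraries. In old replicate 3, Postn in B cells stood at 0.179% of its progenitor level, against 1.40% and 2.01% in the other old libraries. This did not hold in every class, since in the cluster led by H2-M2 and Dnase1l3 the same share was 0.977% in old replicate 3, against 0.472% and 0.684% in the other old libraries. Pairs of libraries shared 4 to 23 cell barcodes.

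All 10 are protein-coding genes spread over 8 chromosomes of build GRCm38, with positions from GENCODE release M21. Of the secreted matricellular proteins, Postn (ENSMUSG00000027750) lies at chr3:54361109-54391037 on the plus strand. Its product, periostin, binds integrins and collagen and takes part in collagen crosslinking. Sparc (ENSMUSG00000018593), for a collagen-binding glycoprotein, lies at chr11:55394500-55423183 on the minus strand. Thbs2 (ENSMUSG00000023885), for thrombospondin 2, an inhibitor of vessel growth, lies at chr17:14665500-14694235 on the minus strand. Tnc (ENSMUSG00000028364), for tenascin-C, a large glycoprotein of wounds and developing tissue, lies at chr4:63959785-64047015 on the minus strand. Fn1 (ENSMUSG00000026193), for fibronectin, the scaffold on which other matrix proteins assemble, lies at chr1:71585520-71653200 on the minus strand. Frem1 (ENSMUSG00000059049), for a protein of the basement membrane zone, lies at chr4:82897920-83052339 on the minus strand. Cthrc1 (ENSMUSG00000054196) at chr15:39076932-39087121 and C1qtnf3 (ENSMUSG00000058914) at chr15:10952332-10980150 are both on the plus strand and encode secreted proteins with a collagen-like stretch. Cthrc1 is known for its induction in activated fibroblasts, and C1qtnf3 is an adipokine of the C1q/TNF-related family. The membrane proteins are Lrrc15 (ENSMUSG00000052316) at chr16:30269302-30283256, a marker of activated myofibroblasts, and Adam12 (ENSMUSG00000054555) at chr7:133883199-134232146, a metalloprotease induced in fibroblasts after injury. Both are on the minus strand. Adam12 overlaps annotated genes on its own strand, and Fn1 and Tnc each overlap a gene on the opposite strand, so a few reads of these 3 could belong to a neighbour.

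Promoters of 7 of the 10 genes were matched in the RefSeq tables for GRCm38.p6, and the 250 bases before the start are shown for 4 genes whose levels the results turn on. Capitals mark the motifs searched on both strands, which were TGANTCA of AP-1, GGAATG of TEAD, CAGACA of SMAD and the TATA box TATAAA. The Postn sequence lies at chr3:54360857-54361106 on the plus strand, Lrrc15 at chr16:30283255-30283504 on the minus strand, C1qtnf3 at chr15:10952082-10952331 on the plus strand and Sparc at chr11:55420081-55420330 on the minus strand.
Postn: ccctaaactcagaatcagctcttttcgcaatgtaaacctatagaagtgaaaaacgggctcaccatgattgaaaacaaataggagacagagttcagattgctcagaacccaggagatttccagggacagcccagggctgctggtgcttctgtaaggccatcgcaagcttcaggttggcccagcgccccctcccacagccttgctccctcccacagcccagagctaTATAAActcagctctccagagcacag
Lrrc15: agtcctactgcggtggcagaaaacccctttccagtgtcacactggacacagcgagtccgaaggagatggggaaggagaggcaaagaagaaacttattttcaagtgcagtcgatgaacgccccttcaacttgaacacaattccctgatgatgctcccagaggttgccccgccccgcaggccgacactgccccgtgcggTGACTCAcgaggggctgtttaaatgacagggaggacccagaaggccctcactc
C1qtnf3: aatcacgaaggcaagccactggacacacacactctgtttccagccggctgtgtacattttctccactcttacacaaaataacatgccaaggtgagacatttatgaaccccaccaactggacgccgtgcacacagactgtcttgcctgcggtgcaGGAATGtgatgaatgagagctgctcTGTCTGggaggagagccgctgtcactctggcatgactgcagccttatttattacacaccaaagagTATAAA
Sparc: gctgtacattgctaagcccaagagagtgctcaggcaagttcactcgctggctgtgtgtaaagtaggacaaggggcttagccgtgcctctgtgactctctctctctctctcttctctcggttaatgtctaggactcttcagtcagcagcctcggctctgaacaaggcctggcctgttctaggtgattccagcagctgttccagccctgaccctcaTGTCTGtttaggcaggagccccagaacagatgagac

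In Postn the TATA box begins 26 bases before the start. In Lrrc15 the capitals are an AP-1 match 53 bases before the start. C1qtnf3 has a TEAD match at 96 bases, a SMAD match on the other strand at 71 bases and a TATA match at 6 bases. Sparc has a SMAD match on the other strand at 36 bases, and its RefSeq start lies 3103 bases from the GENCODE start. Over the 7 promoters, 1 held the AP-1 motif, 1 the TEAD motif, 3 the SMAD motif and 4 the TATA box. Of 32851 promoters of the same length, 6.75% held the AP-1 motif, 12.6% the TEAD motif, 17.1% the SMAD motif and 12.4% the TATA box. These matches describe letters in a window and are not evidence of binding.

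In progenitors all 10 genes had a lower mean in old than in young libraries. Levels are CPM of the UMIs summed over a library's progenitors. Postn gave 909.9, 1178 and 887 CPM in old libraries, against 3536, 5927, 6292 and 5997 CPM in young libraries. All old libraries lay below every young library, and the lowest young value was that of replicate 1. Sparc gave 3236, 3291 and 3711 CPM in old libraries, against 6796, 7224, 13174 and 7600.2 CPM in young libraries. The old libraries were close to each other and below all young ones, among which replicate 3 was the highest. Thbs2 gave 340.0, 282 and 210.4 CPM in old libraries, against 330.5, 329, 349.9 and 392 CPM in young libraries. Its groups overlapped, since old replicate 1 lay among the young libraries. Tnc was low and scattered, at 6.29, 21.2 and 19.99 CPM in old libraries, against 21.2, 6.51, 32.7 and 39.2 CPM in young libraries, and its groups overlapped.

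Fibronectin is read from Fn1, which stood at 1522, 2292 and 785 CPM in old libraries, against 3877, 6508, 5702 and 4497 CPM in young libraries. The groups did not overlap, and old replicate 3 was the lowest of all. Frem1 stood at 13.3, 16.5 and 11.9 CPM in old libraries, against 35.9, 62.5, 121 and 71.5 CPM in young libraries, again without overlap. Of the secreted proteins with a collagen-like stretch, Cthrc1 gave 12.7, 17.4 and 15.0 CPM in old libraries, against 133, 106, 159 and 121 CPM in young libraries. This was a clear separation at low counts per cell. C1qtnf3 gave 2.31, 3.03 and 1.42 CPM in old libraries, against 15.5, 15.9, 22.4 and 17.4 CPM in young libraries, also without overlap. On the cell surface, Lrrc15 stood at 17.0, 17.7 and 11.9 CPM in old libraries, against 49.9, 70.4, 172 and 107 CPM in young libraries, without overlap. Adam12 gave 43.3, 56.0 and 35.6 CPM in old libraries, against 40.7, 124, 141 and 129 CPM in young libraries, and young replicate 1 fell within the old range while the other young libraries lay above it.

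**Figure D1:**
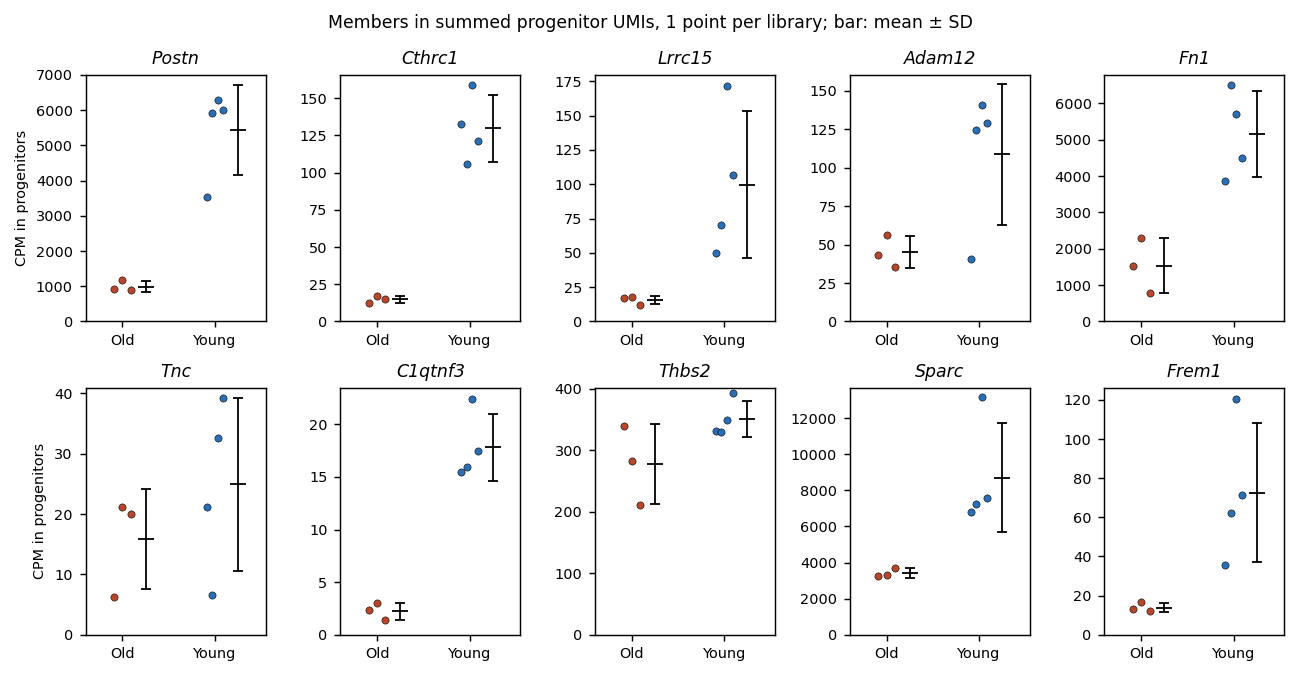
CPM of each of the 10 genes in summed progenitor UMIs, with 1 point per library, old libraries on the left and young libraries on the right, and a bar for the mean ± SD of each group. Every panel starts at 0; the groups separate in 7 panels and overlap for Adam12, Tnc and Thbs2.

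The groups did not overlap, with old lower, for 7 of the 10 genes, against 9.1% of the 13940 genes tested in progenitors. In the edgeR fit over all genes, 6 of the 10 passed an adjusted p of 0.05 on the lower side, against 1.18% of genes tested. Nothing can be read from these shares, because the same contrast was known when the genes were chosen. The fitted log2 fold changes, old over young, were -3.10 (SE 0.21) for Cthrc1, -2.97 (SE 0.26) for C1qtnf3 and -2.70 (SE 0.43) for Lrrc15. They were -2.47 (SE 0.28) for Postn, -2.40 (SE 0.40) for Frem1 and -1.79 (SE 0.34) for Fn1. Sparc stood at -1.34 (SE 0.29) and Adam12 at -1.31 (SE 0.41). The smallest differences were those of Tnc, at -0.65 (SE 0.60), and Thbs2, at -0.34 (SE 0.19). Leaving out any single library kept every one of these log2 fold changes negative. The genes were chosen by this contrast in these libraries, so the kept sign says nothing of stability. Without young replicate 1 the log2 fold change of Postn was -2.66 and that of Adam12 was -1.60, and 8 of the 10 genes passed. Without old replicate 3 that of Fn1 was -1.52, and 3 passed. The median of the 10 was -2.10, beside 0.0032 over all genes tested.

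The share of progenitors in which each RNA was found was also lower in old libraries. This share depends on the level, so it is not a separate difference. Fewer carrying cells and less RNA per cell were not told apart. To set libraries of unequal depth side by side, each cell was thinned to 2000 UMIs. This left out 35 to 58 shallower progenitors per old library and 52 to 140 per young library. Postn was then found in 41.8% ± 4.26 of old progenitors and 84.5% ± 10.2 of young progenitors (SD, n = 3 and 4 libraries). Without thinning these shares were 57.0% and 91.9%. Fn1 was found in 40.3% ± 13.2 of old and 91.4% ± 3.09 of young progenitors, or 55.9% and 95.8% without thinning. Cthrc1 was found in 2.33% ± 0.428 of old and 16.4% ± 1.60 of young progenitors, or 9.28% and 44.7% without thinning. Sparc was found in nearly all progenitors at both ages, in 93.7% ± 1.15 of old and 98.4% ± 0.986 of young cells. In B cells, which should lack these RNAs, Postn was seen in 2.92% of old and 16.3% of young cells at the same thinning. Fn1 was seen in 8.60% of old and 16.9% of young B cells, and Cthrc1 in 0.156% of old and 0.612% of young B cells. Median depths of these cells before thinning were 4175 to 5404.5 UMIs in old and 4324 to 5888 UMIs in young B cells, against 9182 to 13130.5 UMIs in old and 14497 to 26414 UMIs in young progenitors.

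Detection of several of the RNAs in the same cell was lower in old progenitors. This depends on the level of each gene, by which the genes were chosen, so it is not a separate difference. At 2000 UMIs per cell, at least 5 of the 10 genes were detected in 1.90%, 3.69% and 1.41% of progenitors of the old libraries, against 15.5%, 21.4%, 32.3% and 28.1% in the young libraries. Of the B cells, 0 of 1603 old and 0 of 412 young cells held 5 of them, which allows shares of up to 0.187% and 0.728%. These limits pool the cells of all libraries and cover counting error only, and 1179 of the old B cells came from old replicate 3.

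Within progenitors the genes were not evenly spread. The 6 progenitor clusters are called by their leading genes. Those led by H19 and Fgf10 and by Crabp1 and Nos1 were the highest for Postn, Lrrc15 and Frem1 in young libraries. The cluster led by Pi16 and Smpd3, whose Pi16-positive cells are regarded as early interstitial progenitors, was high for Fn1 and low for the surface genes. In the Crabp1 Nos1 cluster, Postn gave 1976, 3128 and 1489.7 CPM in old libraries, against 9302, 9709, 9735 and 8868 CPM in young libraries. All young libraries were close to each other there, and all old ones lay far below. Cthrc1 in that cluster gave 33.4, 45.6 and 38.6 CPM in old libraries, against 374, 296, 317 and 228 CPM in young libraries, and Sparc 1721, 1871 and 1922 CPM in old libraries, against 9538, 7014, 15455 and 7325 CPM in young libraries. Neither overlapped. In the H19 Fgf10 cluster the distance was smaller for Postn, at 4273, 5319 and 3321 CPM in old libraries, against 6319.8, 8090.3, 7229 and 6950.0 CPM in young libraries. The groups still did not overlap. C1qtnf3, the adipokine, kept a wide gap in that cluster, at 1.18, 2.73 and 3.47 CPM in old libraries, against 20.4, 15.2, 26.9 and 21.0 CPM in young libraries. The membrane pair did not: Lrrc15 gave 119, 139 and 45.2 CPM in old libraries, against 106, 99.9, 188 and 137 CPM in young libraries, and Adam12 gave 195, 187 and 149 CPM in old libraries, against 142, 192, 214 and 231 CPM in young libraries. Both overlapped, as did Fn1, Frem1, Thbs2 and Tnc in those cells.

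In the Pi16 Smpd3 cluster Fn1 gave 3749, 4374 and 3223 CPM in old libraries, against 5173, 5727, 6053 and 5797 CPM in young libraries. Postn there gave 453, 388 and 350.2 CPM in old libraries, against 1323, 1325, 1375 and 1257 CPM in young libraries, below its level in the H19 Fgf10 cluster in every library. Both genes separated by age. In the cluster led by Smoc2 and Cyp26b1, genes of committed preadipocytes, Adam12 gave 56.5, 84.5 and 51.0 CPM in old libraries, against 164, 109, 191 and 147 CPM in young libraries. The groups separated there although they overlapped over all progenitors. In the cluster led by Pappa2 and Cilp 2 genes had a higher mean in old libraries. Tnc was higher in every old library of that cluster, at 3.46, 13.5 and 5.43 CPM in old libraries, against 1.76, 0.406, 0.970 and 0.577 CPM in young libraries. Thbs2 there gave 717, 535 and 240.0 CPM in old libraries, against 332, 395, 343 and 335 CPM in young libraries, with old replicate 3 below every young library and the other old libraries above them.

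**Figure D2:**
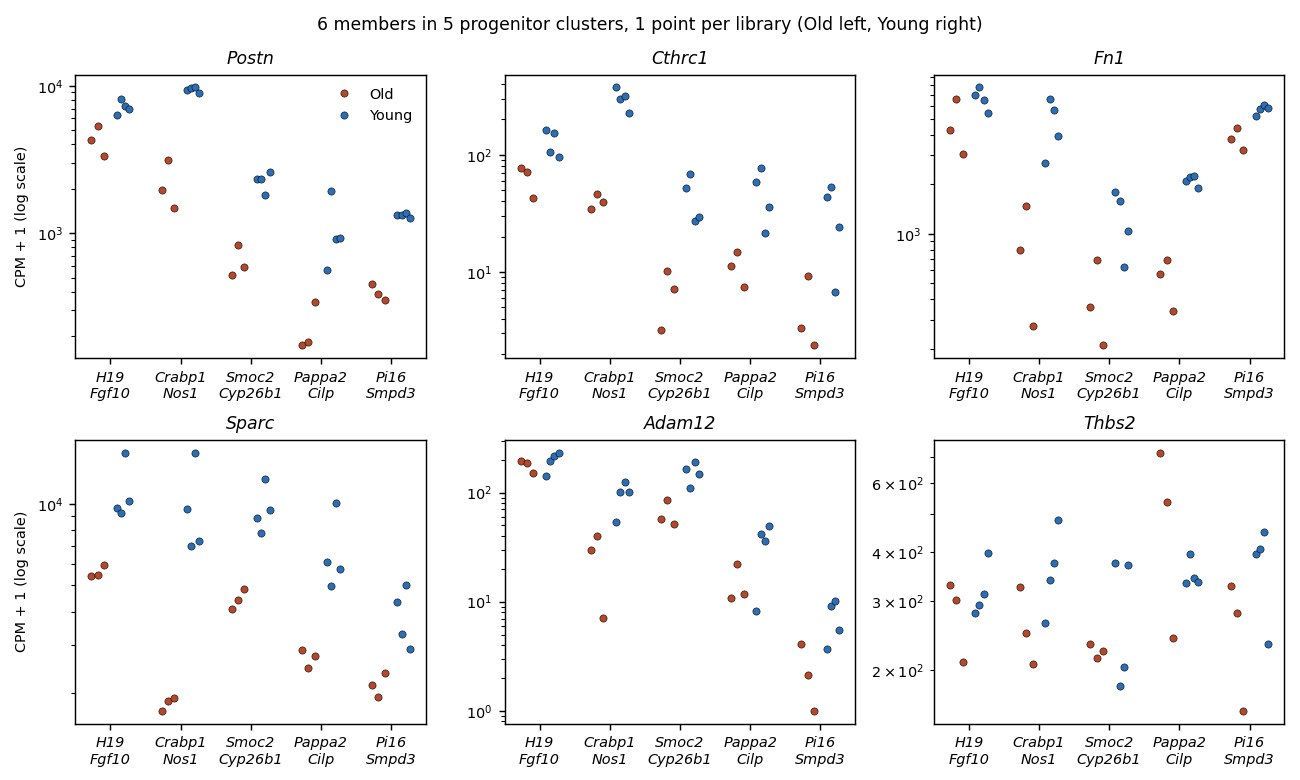
CPM plus 1, on a log scale, of Postn, Cthrc1, Fn1, Sparc, Adam12 and Thbs2 in 5 progenitor clusters named by their leading genes, with 1 point per library, old libraries on the left and young on the right of each pair. Postn and Sparc separate by age in all 5 clusters, Thbs2 overlaps in all 5, and Adam12 separates in the Crabp1 Nos1 and Smoc2 Cyp26b1 clusters.

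Counting genes whose libraries did not overlap, with old lower, gave 8 of 10 in the Crabp1 Nos1 cluster, beside 9.53% of all genes tested, and 4 in the H19 Fgf10 cluster, beside 8.41%. The count was 6 in the Pi16 Smpd3 cluster, beside 5.44%, and 5 in the Smoc2 Cyp26b1 cluster, beside 4.56%. It was 5 in the Pappa2 Cilp cluster, beside 5.1%, where Tnc was the 1 gene without overlap on the higher side, beside 5.24%. In the low-UMI cluster led by Dpp4 and Sema3c, which had at least 20 cells in only 2 old libraries, it was 3, beside 4.71%. These cells are the progenitors in which the genes were chosen, so the counts describe where the difference lay and nothing more can be read from them. The mean was lower in old for 55 of the 60 pairs of gene and cluster, or 91.7%. For all genes tested, the share with a lower mean in old was 45.3% to 52.8% over the clusters and 46.3% in the Pappa2 Cilp cluster, where 8 of the 10 had a lower mean. The 5 exceptions were Tnc in 3 clusters, Thbs2 in the Pappa2 Cilp cluster and Fn1 in the low-UMI cluster.

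The mix of clusters differed between ages along with the levels. The Smoc2 Cyp26b1 cluster held 45.2% ± 3.15 of old and 5.47% ± 1.08 of young progenitors, and the H19 Fgf10 cluster held 4.37% ± 0.818 of old and 29.9% ± 15.2 of young progenitors (SD). The Crabp1 Nos1 cluster held 21.5% ± 7.62 of old and 23.3% ± 11.0 of young progenitors. Clustering the progenitors alone, again without the 10 genes, gave 17 sub-clusters that separated the ages further. Sub-clusters with committed preadipocyte markers held 1978 old and 23 young cells, and those with matrix-producing markers such as Col1a1 and Lox held 13 old and 2428 young cells. The matrix-producing share was 0.256% to 0.337% of progenitors in old libraries, 0% in young replicate 1 and 19.2% to 49.3% in the other young libraries. In the interstitial-like sub-clusters, marked by Dpp4 and Pi16 and populated at both ages, 9 of the 10 genes did not overlap, with old lower, beside 5.98% of all genes. In the regulatory-like ones, marked by F3 and Clec11a, 5 did not overlap, beside 6.31%. In the sub-clusters left unnamed, with 1490 old and 2230 young cells, 4 did not overlap, beside 7.41%. The rule that chose the genes used these cells too. In the regulatory-like sub-clusters alone, Tnc was higher in old without overlap, beside 4.26% of all genes on that side. It gave 8.45, 21.9 and 10.5 CPM there in old libraries, against 0.498, 0.405, 0.676 and 0.891 CPM in young libraries. In the unnamed sub-clusters its groups overlapped, and in the interstitial-like ones it was lower in old.

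How much of the level lay in the mix was described by recomputing each old library with its own levels per cluster and the mean cluster shares of the young libraries. As measured, the median log2 ratio of mean levels over the 10 genes was -2.07. With young shares of the 6 clusters it was -1.05, and with young shares of 4 groups of sub-clusters it was -1.86. These 4 groups were the interstitial-like, the regulatory-like and the unnamed sub-clusters, and the committed preadipocyte and matrix-producing ones joined, since each of these 2 had fewer than 20 cells in some libraries. The joined group was nearly all committed preadipocyte cells in old libraries and matrix-producing cells in 3 young libraries, so the sub-cluster types that differed most between ages were not exchanged, and the 2 divisions are not like measures. Over all genes tested the medians were -0.0083 as measured, 0.0076 for the 6 clusters and 0.0017 for the 4 groups. With the 6 clusters the log2 ratio of Lrrc15 was -1.07, against -2.68 as measured, and that of Postn was -1.26, against -2.46 as measured. C1qtnf3 stood at -2.71, against -2.98 as measured, and Sparc at -1.30, against -1.35 as measured. Giving young libraries the old shares of the 6 clusters instead left a median of -1.37. Tnc changed sign in that direction, to 0.25.

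**Figure D3:**
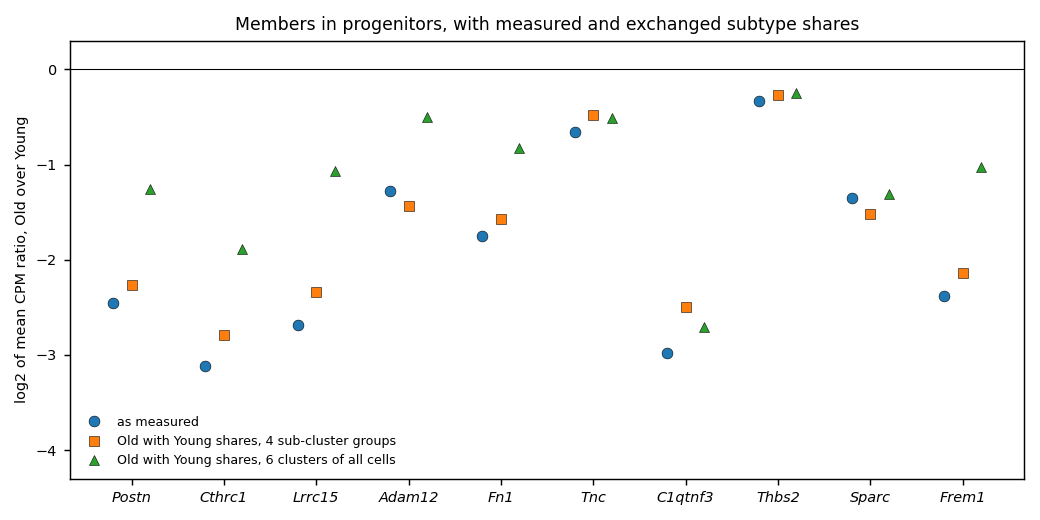
Log2 ratio of mean level in progenitors, old over young, for each of the 10 genes, as measured (circles), with old libraries given young shares of 4 groups of sub-clusters (squares) and with old libraries given young shares of the 6 clusters (triangles). All 30 points lie below 0, and the triangles lie closest to 0 for 8 of the 10 genes, the exceptions being Tnc and C1qtnf3.

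Across the 41 sums of progenitor cluster and library, the 10 genes varied together to different degrees. Correlations are Pearson's r of log2(CPM + 1). They are descriptive, since the points share libraries, depth and clusters, and the genes were chosen by the same age difference. The mean is that of the z-scores of all 10 genes. It includes the gene set against it, so these values are not like those of genes outside the list. Cthrc1 followed the mean of the 10 most closely, at 0.905, then Lrrc15, at 0.893, and Frem1, at 0.891. Fn1, at 0.327, and Thbs2, at 0.440, followed it least. Among pairs the highest was Lrrc15 with Frem1, at 0.864, and the lowest Fn1 with Tnc, at -0.171. The genes outside the list most like its mean were Fkbp9, an endoplasmic reticulum prolyl isomerase, at 0.918, the amino acid transporter gene Slc38a4 at 0.888, the fibrillar collagen gene Col5a2 at 0.877, Ppic at 0.871 and Itm2a at 0.850. Over the 150 sums of all cell classes and libraries the closest were Col3a1 at 0.907, Col1a1 at 0.907, Col1a2 at 0.901, Col5a2 at 0.894 and Ccdc80 at 0.886.

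Outside progenitors, Postn, Fn1 and Sparc had levels in several lineages and the other 7 genes were low. In order of the mean over both ages, Postn was highest in progenitors, followed by smooth muscle-like cells. Cthrc1, Lrrc15, Adam12, Frem1, C1qtnf3, Thbs2 and Fn1 were also highest in progenitors. In old libraries alone, the mean of Fn1 was 2150.0 CPM in the Lyz1 Ear2 cluster and 1533 CPM in progenitors, and that of Cthrc1 was 18.7 CPM in epithelial-like cells and 15.0 CPM in progenitors. The epithelial Cthrc1 mean rested on old replicate 2, where 27 of 36 UMIs came from 1 of 44 cells. In the other old libraries epithelial Cthrc1 lay below its progenitor level. The old mean of C1qtnf3 was 5.71 CPM in epithelial-like cells, all of it from old replicate 2, and 2.25 CPM in progenitors. Sparc was highest in Schwann-like cells and progenitors, which did not differ beyond their spread in young libraries, followed by smooth muscle, pericyte-like and endothelial cells. In the 3 young libraries with enough Schwann-like cells, Sparc stood at 7893, 9329 and 8256 CPM. Over both ages Tnc was highest in smooth muscle-like cells, with means of 24.2 CPM in old and 37.0 CPM in young libraries, beside 15.8 CPM in old and 24.9 CPM in young progenitors. In old libraries alone its mean was highest in epithelial-like cells, at 34.7 CPM.

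**Figure D4:**
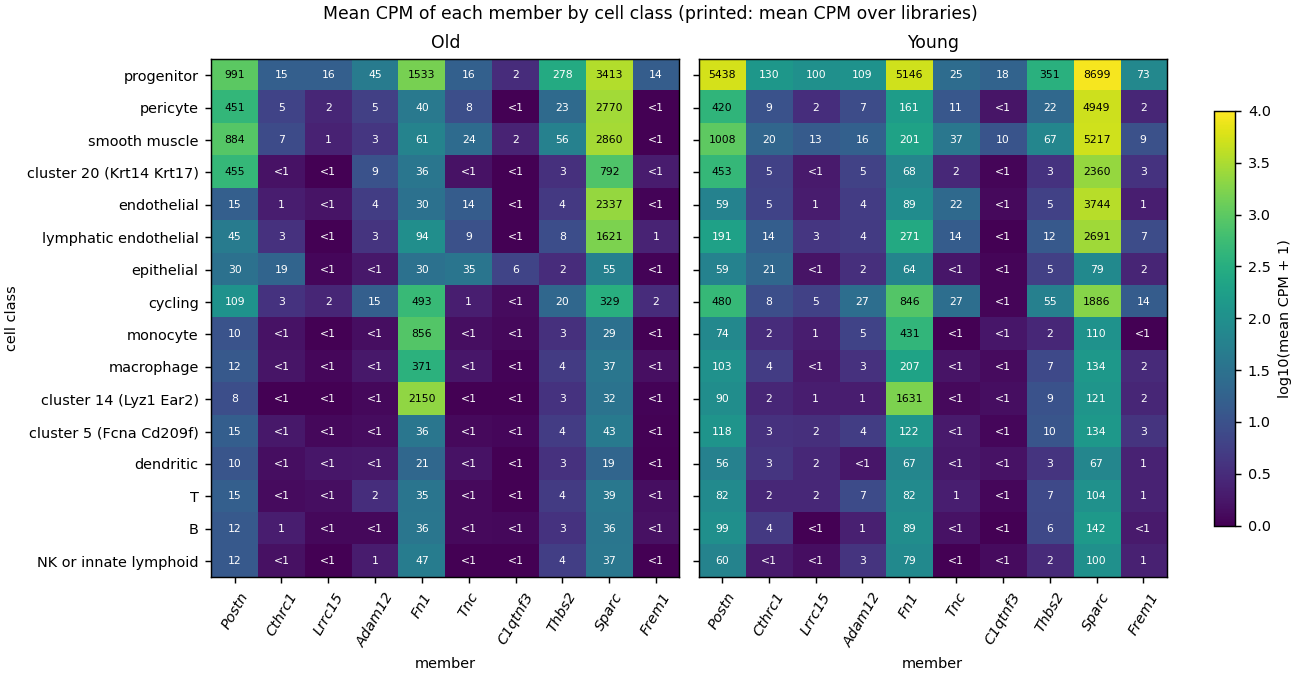
Mean CPM of each of the 10 genes in 16 cell classes, old libraries on the left and young libraries on the right, coloured by log10(mean CPM + 1) with the mean printed in each cell. Postn, Fn1 and Sparc are high in progenitors; Postn is also high in pericyte and smooth muscle-like cells, Fn1 in the Lyz1 Ear2 cluster and Sparc in all vascular classes.

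Of the 190 pairs of gene and class in 19 classes other than progenitors, 81 had enough counts to be tested. Postn could be tested in 18 classes, Fn1 and Sparc in all 19, and Lrrc15 and C1qtnf3 in none. In these tests 9 pairs were lower in old and 1 was higher at an adjusted p of 0.05. Each is given with the share of genes that passed in the same direction in its class.

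Mural cells, the pericytes and smooth muscle of vessel walls, are a known source of periostin. In pericyte-like cells Postn gave 501, 557 and 295 CPM in old libraries, against 434, 352, 550.5 and 343 CPM in young libraries. The groups overlapped, and the log2 fold change was 0.17 (SE 0.25; adjusted p = 0.905 by edgeR). In smooth muscle-like cells it gave 807, 1187 and 657 CPM in old libraries, against 769, 1269, 1483 and 513 CPM in young libraries, with a log2 fold change of -0.19 (SE 0.38; adjusted p = 0.956 by edgeR). These tests did not detect an age difference, which does not show that there was none. Young replicate 3, the highest young library in both, leaned on single cells. There 1 cell held 383 of 1714 Postn UMIs in pericyte-like cells, and another 395 of 1421 in smooth muscle-like cells. Relative to progenitors of the same library, pericyte Postn was 33.3% to 55.0% in old libraries and 5.71% to 12.3% in young libraries, and smooth muscle Postn was 74.1% to 101% in old libraries and 8.55% to 23.6% in young libraries. Progenitor Postn, the divisor, was lower in old by the choice of the genes, so the higher old percentages are not read as an increase. In the unnamed cluster led by Krt14 and Krt17, genes of basal epithelium, Postn gave 522, 235 and 608 CPM in old libraries, against 398, 489 and 471 CPM in young libraries, again overlapping, with a log2 fold change of -0.03 (SE 0.34; adjusted p = 0.999 by edgeR). The pericyte-like cluster also held endothelial RNA. Its 10 endothelial markers summed to 6825 to 7904 CPM in old and 6893 to 8131 CPM in young libraries, beside 4586 to 5581 CPM in old and 2931 to 4520 CPM in young libraries for its 9 pericyte markers. Their part in the result was not tested.

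Fibronectin RNA differed in pericyte-like cells, at low levels. Fn1 gave 37.2, 50.7 and 32.4 CPM in old libraries, against 122, 135, 270.4 and 114 CPM in young libraries there, without overlap, and fell with a log2 fold change of -1.92 (SE 0.34; adjusted p = 0.0491 by edgeR). In that class 0.288% of genes passed on the lower side. As a share of the progenitor level in the same library it was 2.21% to 4.13% in old libraries and 2.08% to 4.74% in young libraries, ranges that overlap. In B cells the share of Fn1 was 0.673% to 2.84% in old libraries and 1.63% to 1.90% in young libraries. The part of progenitor RNA free in the droplets in the pericyte difference was not tested. The call was lost in 10 of 15 alternatives, and the adjusted p without 1 library lay between 0.0227 and 0.314.

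Sparc, for which mural and endothelial cells are known sources, was lower in old in the estimate of all 19 classes. The classes share libraries, so these estimates are not separate results. Most immune classes among them had low levels, such as means of 35.7 CPM in old and 142 CPM in young B cells. Such values are not read as expression by these cells. In endothelial cells Sparc gave 2015, 1997 and 2999 CPM in old libraries, against 3726, 3319, 5230.4 and 2699 CPM in young libraries, with a log2 fold change of -0.65 (SE 0.28; adjusted p = 0.464 by edgeR). A single endothelial cell held 1002 of the 6194 Sparc UMIs of young replicate 3, and another 941 of the 11376 of old replicate 3. In pericyte-like cells Sparc gave 2518, 2594 and 3199 CPM in old libraries, against 5369, 4319.7, 5911 and 4197 CPM in young libraries. These groups did not overlap, as for 7.91% of genes tested in that class with old lower, but the log2 fold change of -0.76 (SE 0.22; adjusted p = 0.221 by edgeR) did not pass. In smooth muscle-like cells the log2 fold change was -0.83 (SE 0.31; adjusted p = 0.443 by edgeR), and in lymphatic endothelial cells -0.75 (SE 0.36; adjusted p = 0.472 by edgeR). Neither passed. In the Krt14 Krt17 cluster Sparc fell. It gave 631, 593 and 1151 CPM in old libraries, against 2725, 2322 and 2032 CPM in young libraries, since young replicate 2 had too few of these cells. The log2 fold change was -1.60 (SE 0.27; adjusted p = 0.039 by edgeR), in a class where 0.279% of genes passed on the lower side. It lost the call in 4 of 12 alternatives.

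Among 10 immune classes and clusters Postn fell in 5 and Sparc in 2, at low levels. In macrophage-like cells Postn gave 16.3, 17.1 and 3.20 CPM in old libraries, against 45.5, 114, 130.1 and 122 CPM in young libraries, with a log2 fold change of -3.10 (SE 0.46; adjusted p = 0.0145 by edgeR). Sparc there had a log2 fold change of -1.86 (SE 0.26; adjusted p = 0.0119 by edgeR), and 0.301% of genes passed on the lower side. In B cells the log2 fold change of Postn was -3.35 (SE 0.54; adjusted p = 0.00666 by edgeR) and that of Sparc -2.12 (SE 0.38; adjusted p = 0.0124 by edgeR), where 0.248% of genes passed on that side. Postn also fell in clusters led by Fcna and Cd209f, at -3.001 (SE 0.36; adjusted p = 0.00486 by edgeR), by Lyz1 and Ear2, at -3.32 (SE 0.34; adjusted p = 0.000634 by edgeR), and by H2-M2 and Dnase1l3, at -2.86 (SE 0.48; adjusted p = 0.0386 by edgeR). Sparc did not pass in these 3 clusters, with adjusted p of 0.0684, 0.252 and 0.13 by edgeR. In T, NK, monocyte-like, dendritic and mast cells neither gene passed by edgeR, with an adjusted p of 0.0771 or more for Postn and 0.105 or more for Sparc, all with negative estimates. In the 3 clusters above 0.134%, 0.0789% and 0.0234% of genes passed on the lower side. Progenitor RNA free in the droplets can give counts in such cells, so the levels were set against progenitors of the same library. Postn in B cells was 0.179% to 2.01% in old libraries and 1.72% to 1.98% in young libraries, and in macrophages 0.360% to 1.79% in old libraries and 1.29% to 2.07% in young libraries. Sparc in macrophages was 0.612% to 1.41% in old libraries and 1.32% to 1.82% in young libraries. By this measure the ages overlapped. Values this low are not read as expression by these cells, and the part of free RNA in the differences was not tested.

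**Figure D5:**
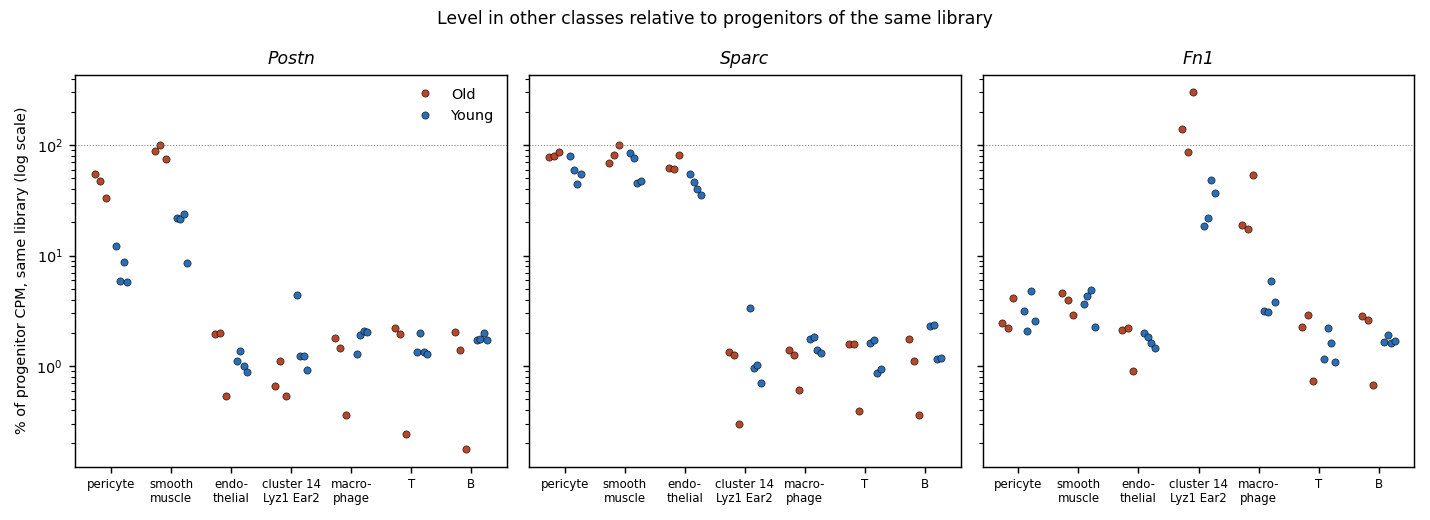
Level of Postn, Sparc and Fn1 in 7 other cell classes as a percentage of the progenitor level of the same library, on a log scale, with old libraries on the left and young on the right. Postn and Sparc lie between 0.179% and 4.37% in the immune classes at both ages, while old mural Postn lies at 33.3% to 101%, above young mural Postn, and Fn1 in old macrophages and the Lyz1 Ear2 cluster lies at 17.4% and more. The divisor, the progenitor level, was lower in old by the choice of the genes, so higher old percentages are not read as increases.

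Fibronectin had a positive estimate in 3 of 19 classes, all myeloid, and none of these passed by edgeR. Fn1 is known to be made by monocytes and peritoneal-type macrophages. In monocyte-like cells it gave 1151, 890.0 and 527 CPM in old libraries, against 312, 633, 431 and 346 CPM in young libraries, with a log2 fold change of 0.95 (SE 0.31; adjusted p = 0.541 by edgeR). Old replicate 3 lay within the young range. In macrophage-like cells Fn1 gave 289, 399 and 425 CPM in old libraries, against 123, 201, 334 and 169 CPM in young libraries, with a log2 fold change of 0.86 (SE 0.33; adjusted p = 0.342 by edgeR). Over both ages, the cluster led by Lyz1 and Ear2 had the highest mean of Fn1 outside progenitors, at 2107, 1989 and 2355 CPM in old libraries, against 718, 1411, 2748 and 1649 CPM in young libraries. Its log2 fold change of 0.35 (SE 0.43; adjusted p = 1 by edgeR) did not pass. Other myeloid classes had negative estimates. In the cluster led by Fcna and Cd209f Fn1 gave 37.6, 62.6 and 9.13 CPM in old libraries, against 73.0, 167, 159 and 87.3 CPM in young libraries, and the log2 fold change of -1.78 (SE 0.45; adjusted p = 0.186 by edgeR) did not pass. It was -1.65 (SE 0.51; adjusted p = 1 by edgeR) in dendritic cells, -1.05 (SE 0.53; adjusted p = 0.671 by edgeR) in the H2-M2 Dnase1l3 cluster and -3.59 (SE 1.25; adjusted p = 0.591 by edgeR) in mast or basophil-like cells. Relative to progenitors of the same library, monocyte Fn1 was 38.8% to 75.6% in old libraries and 7.57% to 9.73% in young libraries, and Fn1 in the Lyz1 Ear2 cluster was 86.7% to 299.9% in old libraries and 18.5% to 48.2% in young libraries. In that cluster Fn1 exceeded the progenitor level in old replicates 1 and 3. Progenitor Fn1, the divisor, was lower in old by the choice of the genes, so the higher old percentages are not read as increases.

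Tenascin-C gave the single increase. Inguinal fat of female mice holds the mammary gland, and tenascin-C is known there from ducts that are forming or regressing. In epithelial-like cells Tnc gave 61.8, 17.1 and 25.0 CPM in old libraries, against 1.71, 0, 0.760 and 0.433 CPM in young libraries. Every old library lay above every young library, as for 5.89% of genes tested in that class, and old replicate 1 was the highest. Tnc rose with a log2 fold change of 5.13 (SE 0.54; adjusted p = 0.000641 by edgeR), in a class where 3.26% of genes passed on the higher side. It passed in all 14 alternatives. The increase was not seen in the Krt14 Krt17 cluster. Tnc had means of 0.590 CPM in old and 1.89 CPM in young libraries there, too low to be tested. In old libraries 63 of 134, 6 of 44 and 22 of 105 epithelial-like cells held a Tnc UMI, which is 47.0% (95% exact interval 38.3% to 55.8%), 13.6% (5.17% to 27.4%) and 21.0% (13.6% to 30.0%). In young libraries 24 of 285, 0 of 22, 2 of 41 and 2 of 65 did, which is 8.42% (5.47% to 12.3%), 0% (a count of 0 allows up to 13.6%), 4.88% (0.596% to 16.5%) and 3.08% (0.375% to 10.7%). The young cells were deeper, with medians of 20572.5 to 70934 UMIs per cell, against 13453.5 to 19490.5 UMIs in old libraries. Thinned to 2000 UMIs per cell, which left out 0 to 11 cells per library, the shares were 10.4%, 2.27% and 3.19% in old libraries, against 0.365% in young replicate 1 and 0% in the other young libraries, where a count of 0 allows up to 14.3%, 7.69% and 4.92%. In B cells without thinning a Tnc UMI was found in 0.149% of old and 0.269% of young cells. The 8 epithelial markers summed to 6334 to 9207 CPM in old and 9685 to 16422 CPM in young epithelial-like cells, and their part in the result was not tested. Cthrc1 in the same cells gave 5.89, 41.1 and 8.95 CPM in old libraries, against 30.0, 22.5, 11.7 and 19.7 CPM in young libraries, with a log2 fold change of -0.43 (SE 0.54; adjusted p = 0.73 by edgeR). The value of old replicate 2 rested on 1 cell, which held 27 of its 36 Cthrc1 UMIs.

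Genes of the surrounding pathways were tested in progenitors. Since these lists were chosen with earlier results of the same data known, their p-values are read with that limit. Of 168 genes in 8 lists, 165 were measured and 157 tested. Of these, 4 rose and 5 fell, beside 0.631% of all genes tested on the higher side and 1.18% on the lower side. Their median log2 fold change was -0.10. Among 21 tested other matricellular genes, 2 rose, 1 fell and the median was 0.26. Smoc2, for a SPARC-related modular calcium-binding protein, rose with a log2 fold change of 1.73 (SE 0.28; adjusted p = 0.0212 by edgeR; 381 ± 76.6 CPM in old and 119 ± 44.4 CPM in young libraries, SD). Sparcl1, the closest relative of Sparc, rose with a log2 fold change of 1.70 (SE 0.30; adjusted p = 0.0297 by edgeR; 1380.1 ± 285 CPM in old and 431 ± 142 CPM in young libraries, SD). Both are also marker genes of committed preadipocytes, and Smoc2 leads the cluster that held the largest share of old progenitors. The part of that share in the result was not tested. Wisp1, a CCN family gene of the Wnt response, fell with a log2 fold change of -3.34 (SE 0.57; adjusted p = 0.0265 by edgeR; 1.33 ± 0.329 CPM in old and 13.8 ± 7.30 CPM in young libraries, SD).

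Among 15 tested relatives of single genes of the list, 2 fell, 0 rose, and the median was -0.25. The count at an unadjusted p under 0.05 was 3 on the lower and 0 on the higher side, and DESeq2 also called 2 lower and 0 higher. C1qtnf6, of the family of C1qtnf3, fell with a log2 fold change of -1.40 (SE 0.28; adjusted p = 0.0468 by edgeR; 60.3 ± 7.68 CPM in old and 159 ± 58.2 CPM in young libraries, SD). Lrrc17, a secreted leucine-rich repeat gene, fell with a log2 fold change of -1.19 (SE 0.21; adjusted p = 0.028 by edgeR; 87.4 ± 15.7 CPM in old and 203 ± 17.5 CPM in young libraries, SD). None of the 27 tested matrix receptor genes, integrins and syndecans among them, passed by edgeR, and their median was -0.13. At an unadjusted p under 0.05 there was 1 higher and 1 lower, and DESeq2 called 1, Sdc1. The lowest p there was that of the syndecan gene Sdc1, with a log2 fold change of -1.29 (SE 0.29; adjusted p = 0.0627 by edgeR; 52.0 ± 2.96 CPM in old and 127 ± 44.0 CPM in young libraries, SD), followed by the integrin gene Itga4, with a log2 fold change of 1.35 (SE 0.54; adjusted p = 0.244 by edgeR; 2.86 ± 2.60 CPM in old and 1.10 ± 0.246 CPM in young libraries, SD). Among 27 tested genes of collagen processing, Adamts2, the procollagen N-proteinase, was the 1 that fell, with a log2 fold change of -1.13 (SE 0.19; adjusted p = 0.0224 by edgeR; 209.9 ± 33.8 CPM in old and 457 ± 50.1 CPM in young libraries, SD), and the median was -0.10.

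Of 28 tested genes of the TGF-beta and activin pathway, a known inducer of Postn, Fn1 and Tnc, 1 rose, and the median was 0.16. It was the activin receptor gene Acvr2a, with a log2 fold change of 0.95 (SE 0.18; adjusted p = 0.0347 by edgeR; 71.4 ± 16.3 CPM in old and 36.7 ± 6.19 CPM in young libraries, SD). Of 15 tested contractile and surface genes of myofibroblasts, Des, for the muscle filament protein desmin, rose with a log2 fold change of 3.09 (SE 0.29; adjusted p = 0.00313 by edgeR; 12.5 ± 4.95 CPM in old and 1.498 ± 0.441 CPM in young libraries, SD), while 13 of the 15 had a negative estimate. Des is also among the smooth muscle markers used here. In progenitors those markers summed to 73.3 to 111.9 CPM in old and 64.1 to 133.5 CPM in young libraries. Pericyte markers summed to 284 to 401 CPM in old and 150 to 300 CPM in young libraries. The part of mural RNA in the rise of Des was not tested. Of 11 tested small leucine-rich proteoglycan genes, Kera, for keratocan, fell with a log2 fold change of -3.48 (SE 0.41; adjusted p = 0.00925 by edgeR; 1.59 ± 0.742 CPM in old and 17.4 ± 5.93 CPM in young libraries, SD). None of the 16 tested genes of fibronectin and elastic fibre assembly passed by edgeR, with a median of -0.17. At an unadjusted p under 0.05 there were 4, all lower, and DESeq2 called 2 of the 16 lower. The lowest p were those of Mfap2, with a log2 fold change of -1.45 (SE 0.37; adjusted p = 0.0973 by edgeR; 155 ± 75.4 CPM in old and 436 ± 101 CPM in young libraries, SD), and Fbn2, with a log2 fold change of -1.46 (SE 0.51; adjusted p = 0.191 by edgeR; 8.99 ± 3.13 CPM in old and 25.1 ± 14.6 CPM in young libraries, SD). Of the 9 genes that passed, Des and Kera passed under all 16 alternatives, and the other 7 each lost the call in 5 to 7 of them.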

How the data were processed

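Single-cell RNA sequencing of the stromal vascular fraction gave 3 old and 4 young libraries. The deposited files hold raw UMI counts per gene and barcode. Per the submitters' processing notes, the authors used Cell Ranger 4.0.0 and the mm10 genome. Everything else was computed from these counts. The 10 genes, the gene lists and the tests were chosen with earlier results of these data known.

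Barcodes needed 500 UMIs, 300 genes and no more than 15% mitochondrial UMIs. Doublets were scored with Scrublet at 0.8% per 1000 barcodes (2.51% to 7.34% per library) and left out. Cells were clustered with scanpy 1.11.5 and leidenalg 0.10.2 (2000 variable genes without the 10, 30 principal components, 15 neighbours, resolution 1, no integration), and clusters were named from marker lists, so names stand for marker-like cells. The 12 unnamed clusters held 2996 old and 3040 young cells. Counts were summed per class and library with at least 20 cells. Levels are CPM computed from these deposited counts without scaling factors. Tests were edgeR 4.0.16 quasi-likelihood (filterByExpr, TMM, 2-sided, Benjamini-Hochberg over all genes of a class, threshold 0.05) under R 4.3.3, tested on simulated data. DESeq2 1.42.0, each library left out, the replicate block, RLE factors, no filter, thinning, doublets kept, stricter cell filters (500 genes, 5% mitochondrial) and resolution 2 were alternatives; a division into the 6 clusters and leaving out the low-UMI cluster were added after seeing the data.

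The text names all 10 genes, in each list up to 4 genes with the lowest p per direction among those that passed (the 2 lowest where none did), and the 5 genes most like the mean of the 10 with a mean of at least 20 CPM in progenitors. Progenitor sums of same-age libraries gave chi-square values of 18.01 or more per degree of freedom, well above sampling noise. Intervals are exact (Clopper-Pearson, 95%), and for a count of 0 the upper limit is 3 counts; both cover counting error only. Promoters are RefSeq sequences; those of Cthrc1, Adam12 and Fn1 are not used here.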

Additional observations from a re-analysis of the deposited data

Results flagged for a closer look

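Among 57 groups of 4 young libraries, 6 held a library far from the other 3 by Dixon's 95% criterion, which chance gives in about 1 in 20 groups. In progenitors, Postn was 3536 CPM in young replicate 1, against 5927 to 6292 CPM in the other young libraries, and Adam12 was 40.7 CPM there, against 124 to 141 CPM. That library also had the fewest progenitors in the H19 Fgf10 cluster and 14.8% of them in the low-UMI cluster. Sparc was 13174 CPM in progenitors of young replicate 3, against 6796 to 7600 CPM in the other young libraries, and 15375 CPM in its H19 Fgf10 cluster, against 9252 to 10250 CPM. Fn1 in pericyte-like cells was 270.4 CPM in young replicate 3, against 114 to 135 CPM. Lrrc15 in the Pappa2 Cilp cluster was 20.5 CPM in young replicate 2, against 9.30 to 10.7 CPM.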

How the results depend on the processing

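In progenitors, the number of the 10 genes passing was 6. It lay between 2 and 8 with 1 library left out (2 without old replicate 1, 3 without old replicate 2, old replicate 3 or young replicate 4) and was 3 with the replicate block. These counts are of the contrast by which the genes were chosen and say nothing of stability. Deviations of same-numbered libraries had correlations of -0.019, 0.012 and 0.010, within the range of -0.232 to 0.196 of the other pairs. With so few libraries this cannot show whether same-numbered libraries were processed together. In other classes 10 pairs passed; the count was 5 to 11 with 1 library left out (5 without old replicate 2, 6 without old replicate 1 or young replicate 3), 37 with no filter on low counts, 24 by DESeq2, 6 at resolution 2, 4 with stricter cell filters and 14 with the replicate block. Listed genes passing numbered 9; 2 to 13 with 1 library left out (2 without old replicate 1, 13 without young replicate 1), 21 by DESeq2 and 3 with the block. All genes passing in progenitors numbered 252, 28 to 455 with 1 library left out, 971 by DESeq2, 350 with no filter and 88 with the block. The cause of these shifts was not tested. The recomputed median was -1.86 (-2.15 to -1.70 with 1 library left out) and -1.05 with the 6 clusters. Lower means within sub-cluster types held for 93.3% of pairs (86.7% to 93.3% with 1 library left out), and the shares of cells with a UMI were lower in old for 10 genes in every alternative. Both are again of the contrast by which the genes were chosen and say nothing of stability. The sub-cluster types include the unnamed sub-clusters pooled as 1, and no share over all genes is set beside these pairs. Postn in pericyte-like cells changed sign to -0.82 with doublets kept, -0.11 at resolution 2 and -0.015 with stricter filters; in smooth muscle-like cells it lay between -0.42 and 0.11 with 1 library left out; in the Krt14 Krt17 cluster it lay between -0.28 and 0.29, and was 0.042 thinned and 0.37 with the block. Fn1 in the Lyz1 Ear2 cluster was -0.11 with stricter filters. Sparc in pericyte-like cells passed by DESeq2 (adjusted p = 0.00911). Calls in macrophages were lost in 4 of 15 alternatives each, Sparc in B cells in 2 of 14 and Postn in the H2-M2 Dnase1l3 cluster in 8 of 12. Low counts limited Lrrc15, C1qtnf3 and Frem1 outside progenitors, where 0, 0 and 1 classes could be tested.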
